A study of Mus musculus with 11 samples.

Results

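The genes described here encode the proteins of the cytosolic ribosome, the particle that translates nuclear messenger RNA. They were chosen by symbol among protein-coding genes: Rpl or Rps followed by digits and at most 1 further letter a, x or y, together with Rpsa, Rplp0, Rplp1 and Rplp2. This gave 76 of the 55414 gene identifiers in the files, 46 for the large subunit and 30 for the small subunit, and all 76 passed the filter on low counts. The rule leaves out pseudogenes and genes with "like" symbols, and it also misses ribosomal protein genes with other names, such as Rps3a1 and Fau, which are given separately below. The study measured polyadenylated RNA from the apex of the heart in C57BL/6 mice, with 4 libraries from unirradiated hearts (NR), 4 from hearts given standard proton radiotherapy (S-PRT) and 3 from hearts given FLASH proton radiotherapy, which is delivered at an ultra-high dose rate (F-PRT). Both irradiated groups received a single dose of 40 Gy aimed at the apex, and their RNA was taken 2 weeks later. The labels give no age or sex and do not say which libraries came from separate animals. Every p-value here is therefore set against library-to-library spread, part of which may be technical.

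A ribosome is built in the nucleolus from ribosomal RNA and 1 copy of most of its proteins, so the genes for these proteins are usually transcribed in proportion to each other, and surplus free protein is degraded. Their messenger RNAs are short and abundant, and most begin with a 5′ terminal oligopyrimidine tract, a C at the cap followed by a run of pyrimidines, through which mTORC1 and the RNA-binding protein Larp1 control how much of the message is translated. In adult heart muscle the ribosome content sets the capacity for protein synthesis and grows in hypertrophy. Several free ribosomal proteins, above all Rpl5 and Rpl11, bind the ubiquitin ligase Mdm2 when ribosome assembly is disturbed, which stabilises p53.

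The tract is what ties these genes to mTORC1, so the letters around the transcription start are shown for members that carry it, from RefSeq on GRCm38.p6. Each window runs from 10 bases before the annotated start to 20 bases from it, 5′ to 3′ on the strand of the gene, and capitals mark the tract.
Rps6, chr4:86857348-86857377, minus strand: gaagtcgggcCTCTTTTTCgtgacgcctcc
Rpl35, chr2:39005112-39005141, minus strand: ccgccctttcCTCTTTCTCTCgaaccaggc
Rpl15, chr14:18270967-18270996, minus strand: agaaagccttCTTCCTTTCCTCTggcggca
Rps27, chr3:90213629-90213658, minus strand: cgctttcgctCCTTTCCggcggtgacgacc
Rpl38, chr11:114668570-114668599, plus strand: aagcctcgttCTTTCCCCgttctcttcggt
Rplp2, chr7:141447641-141447670, plus strand: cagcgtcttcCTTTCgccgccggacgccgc
Of the 76 members, 56 had an entry in the promoter table. A C at an annotated start followed by at least 4 pyrimidines was found in 13 of these 56 (23.21%) and in 800 of 26969 other genes (2.97%). In a wider search, with a longer run, no C required at the start and any place within 20 bases on either side of it, a run of at least 8 pyrimidines was present in 28 of 56, against 18.31% of the other genes. The windows of Rplp0, Rps19 and Rps9 held no tract at the annotated base, which says only that these letters are not at that base. A second feature was the heptamer CCGGAAG, the core bound by ETS-family factors, searched on both strands (CTTCCGG) over the 250 bases before and 50 bases after the start. It was present in 23 of 56 members (41.07%) and in 9.86% of other genes, and the E-box CACGTG in 6 of 56 (10.71%) and in 8.09%. Overlap between the motifs was not removed. Capitals in the following windows mark the heptamer.
Rpl11, chr4:136053374-136053403, minus strand: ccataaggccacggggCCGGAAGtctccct
Rpl31, chr1:39367841-39367870, plus strand: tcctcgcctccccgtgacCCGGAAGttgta
Rpl26, chr11:68901556-68901585, plus strand: ggcaacttacagaaCCGGAAGtcgcgtgta

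The libraries held 20758170 to 40136578 expected counts, and single members 1019 to 33572 per library. Reads of ribosomal protein genes are hard to place, because the mouse genome holds many processed copies. The files listed 297 pseudogenes named after 59 of the members, which held 0.518 to 0.847% as many counts as the members in each library. Expected counts were not whole numbers, to a tolerance of 1e-09, in 1 or more libraries for 73 members, as RSEM gives when it shares a read between features; Rpl8 and Rps21 were among the others, whole in all 11. Cardiomyocyte markers were high in every library, with a summed level of 37700 to 46500 CPM, counts scaled to a common library size, over the 6 markers. Library F-PRT 4 stood apart from the other F-PRT libraries, with the lowest share of counts from mitochondrially encoded genes (24.2%, against 31.6 and 42.3% in F-PRT 2 and F-PRT 3, 30.6 to 43.8% in NR and 37.1 to 43.5% in S-PRT), and counts, and members that lose their call or change by over 1.5 times without it, are also given without it.

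In the unirradiated apex the members spanned 9.92-fold in TPM, which is scaled for transcript length and so compares genes. The median was 262 TPM, and 10 members exceeded 500 TPM. Among the most abundant were Rps27 at 748 ± 32.5 TPM (SD, n = 4) and Rps14 at 742 ± 59.9, whose means lie within each other's spread. The least abundant was Rpl3, the protein beside the peptidyl transferase centre, at 75.4 ± 13.9 TPM, followed by Rpl27a at 94.4 ± 12.8 and Rpl5 at 105 ± 15.6. Rpl3 has a muscle paralog, Rpl3l, described below. Shorter members had higher TPM (Spearman's rho of TPM with effective length -0.58 across 76 genes, a description), and Rps27 was both the shortest member, at 129.2 bases, and the most abundant. Rplp0, often used as a reference gene, stood at 428 ± 44.4 TPM.

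**Figure D1:**
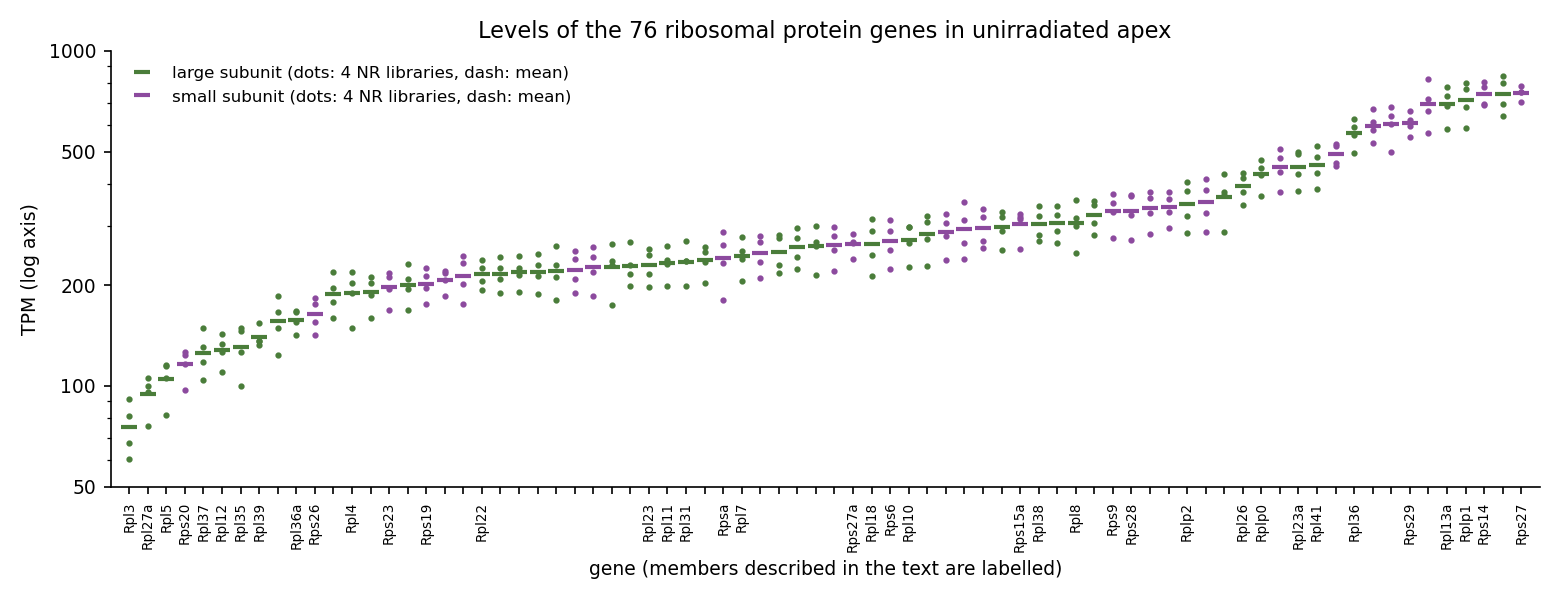
TPM (log axis) of each of the 76 members in the 4 NR libraries, ordered by mean, with the members described in the text labelled; dots are libraries, dashes are means, and colour gives the subunit. Large- and small-subunit members are interleaved from Rpl3 at 75.4 TPM to Rps27 at 748 TPM.

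The median ribosomal protein message was higher in the irradiated apexes, by a modest amount that differed between members. In S-PRT the median member stood 0.33 log2 units above NR, and in F-PRT 0.52, while the median of all 14556 genes tested differed by 0.01 and 0.03. The per-library medians, as log2 CPM scaled by TMM minus the NR mean of each gene, were 0.07, 0.07, -0.004 and -0.14 in NR 1 to 4. They were 0.45, 0.29, 0.31 and 0.19 in S-PRT 1 to 4, and 0.39, 0.35 and 0.76 in F-PRT 2, 3 and 4. Each of the 7 irradiated libraries therefore lay above each NR library, and F-PRT 4 lay above all others. Other short genes moved in the same direction, as set out below. In bulk tissue a change in cell makeup and a change in RNA per cell cannot be told apart. Both comparisons with NR use the same 4 NR libraries.

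**Figure D2:**
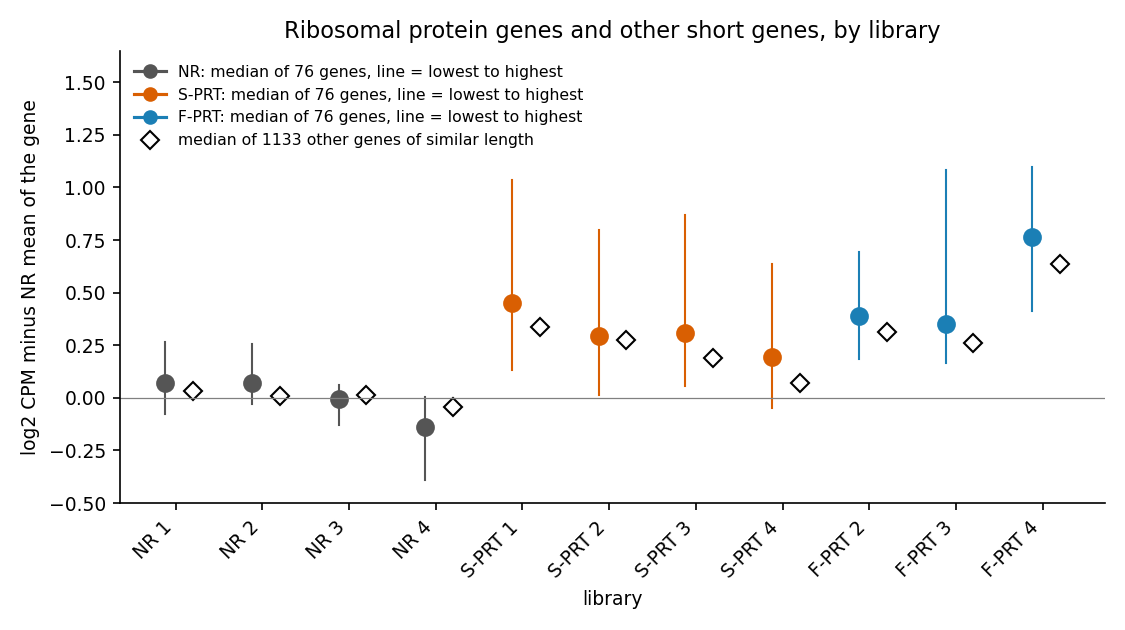
Median log2 CPM of the 76 members in each library relative to the NR mean of each gene (circles, with lines from the lowest to the highest member), beside the median of 1133 other protein-coding genes of similar effective length (diamonds). Circles of the irradiated libraries run from 0.19 to 0.76 and those of NR from -0.14 to 0.07; the diamonds rise with them, to 0.64 in F-PRT 4.

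As a share of all expected counts the members held 1.12% ± 0.09 in NR (SD, n = 4), 1.25% ± 0.07 in S-PRT (n = 4) and 1.67% ± 0.50 in F-PRT (n = 3), with overlapping libraries. The NR libraries held 1.001, 1.098, 1.170 and 1.193%, the S-PRT libraries 1.25, 1.15, 1.30 and 1.29%, and the F-PRT libraries 1.58, 1.22 and 2.21%. Without mitochondrially encoded genes in the total the NR libraries lay close together, at 1.78, 1.79, 1.80 and 1.72%. The share was then 2.21, 2.00, 2.22 and 2.05% in S-PRT and 2.32, 2.11 and 2.92% in F-PRT, and no irradiated library overlapped NR. Of total TPM the members held 2.36% ± 0.27 in NR; the S-PRT share was 2.52% ± 0.17 and the F-PRT share 3.36% ± 0.998, and the 3 groups overlapped.

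After standard proton therapy 8 of the 76 members rose and none fell in edgeR's quasi-likelihood test with Benjamini-Hochberg adjustment over all genes (adjusted p under 0.05). The background was 0.872% of all genes higher and 0.419% lower. The 8 were Rpl39, Rps29, Rpl36a, Rpl41, Rps19, Rpl35, Rpl31 and Rps26, with log2 fold changes from 0.45 to 0.78. All 76 fold changes were above 0 (51.3% of all genes were), from 0.08 for Rpl4 to 0.78 for Rpl39. Scaled by library size only, 72 of 76 were above 0, where the median of all genes was -0.136. In log2 TPM 57 of 76 were above 0, beside 3432 of all 14556 genes. For 59 members every S-PRT library exceeded every NR library, against a background of 7.34%. Same-numbered NR and S-PRT libraries deviated together only weakly (correlations of 0.11 to 0.22, with up to 0.30 between different numbers), and with the replicate number as a block 53 members rose (background 6.42%); DESeq2 called 29 (3.16%). Among the 23 members that did not rise with the block were Rpsa, Rplp0, Rpl3, Rpl4, Rpl5, Rpl7, Rpl8, Rpl10, Rpl15, Rpl22, Rps6 and Rps9. Leaving out NR 3 or NR 4 left 0 members called, and leaving out NR 1, NR 2, S-PRT 1 or S-PRT 3 left 1. Other genes of similar length lost calls too: 48 of 1133 rose as reported. Without NR 1, 2, 3 and 4 in turn, 10 of 1131, 8 of 1132, 9 of 1129 and 6 of 1125 rose. Without S-PRT 1 it was 36 of 1133, and without S-PRT 3 it was 7 of 1127. With the trend of log2 CPM on transcript length removed from each library 0 passed (background 0.508%), and in log2 TPM 0 (1 of all 14556 genes). With library size only 1 passed, beside 3 of 1133 other genes of similar length.

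After FLASH proton therapy 73 of the 76 members rose and none fell, against a background of 10.8% of all genes higher and 8.67% lower. All 76 fold changes were above 0 (background 52.8%), from 0.26 for Rpl7 to 0.77 for Rpl41, and for all 76 every F-PRT library exceeded every NR library (background 17.5%). The 3 that did not pass were Rpl23a (0.34 ± 0.12 SE, adjusted p = 0.0544), Rpl7 (0.26 ± 0.09 SE, adjusted p = 0.0600) and Rps15a (0.31 ± 0.13 SE, adjusted p = 0.0997). By subunit, 44 of 46 large-subunit members and 29 of 30 small-subunit members rose, with medians of 0.52 and 0.53. In S-PRT 5 of 46 and 3 of 30 rose, with medians of 0.30 and 0.35. Without F-PRT 4, 22 of the 73 no longer passed, and 21 members had values over 1.5 times smaller. The count in F-PRT was then 51 of 76, beside 678 of all 14556 genes, and the median member stood at 0.37. Of the 1133 other genes of similar length 214 rose without F-PRT 4, and their median was 0.29. With the length trend removed 0 members passed (background 1.32%), and in log2 TPM 2 (37 of all 14556 genes). With library size only 8 passed, beside 17 of the 1133 other genes of similar length. With the replicate number as a block 0 members passed in F-PRT (22 of all genes rose), where same-numbered libraries did not pair.

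**Figure D3:**
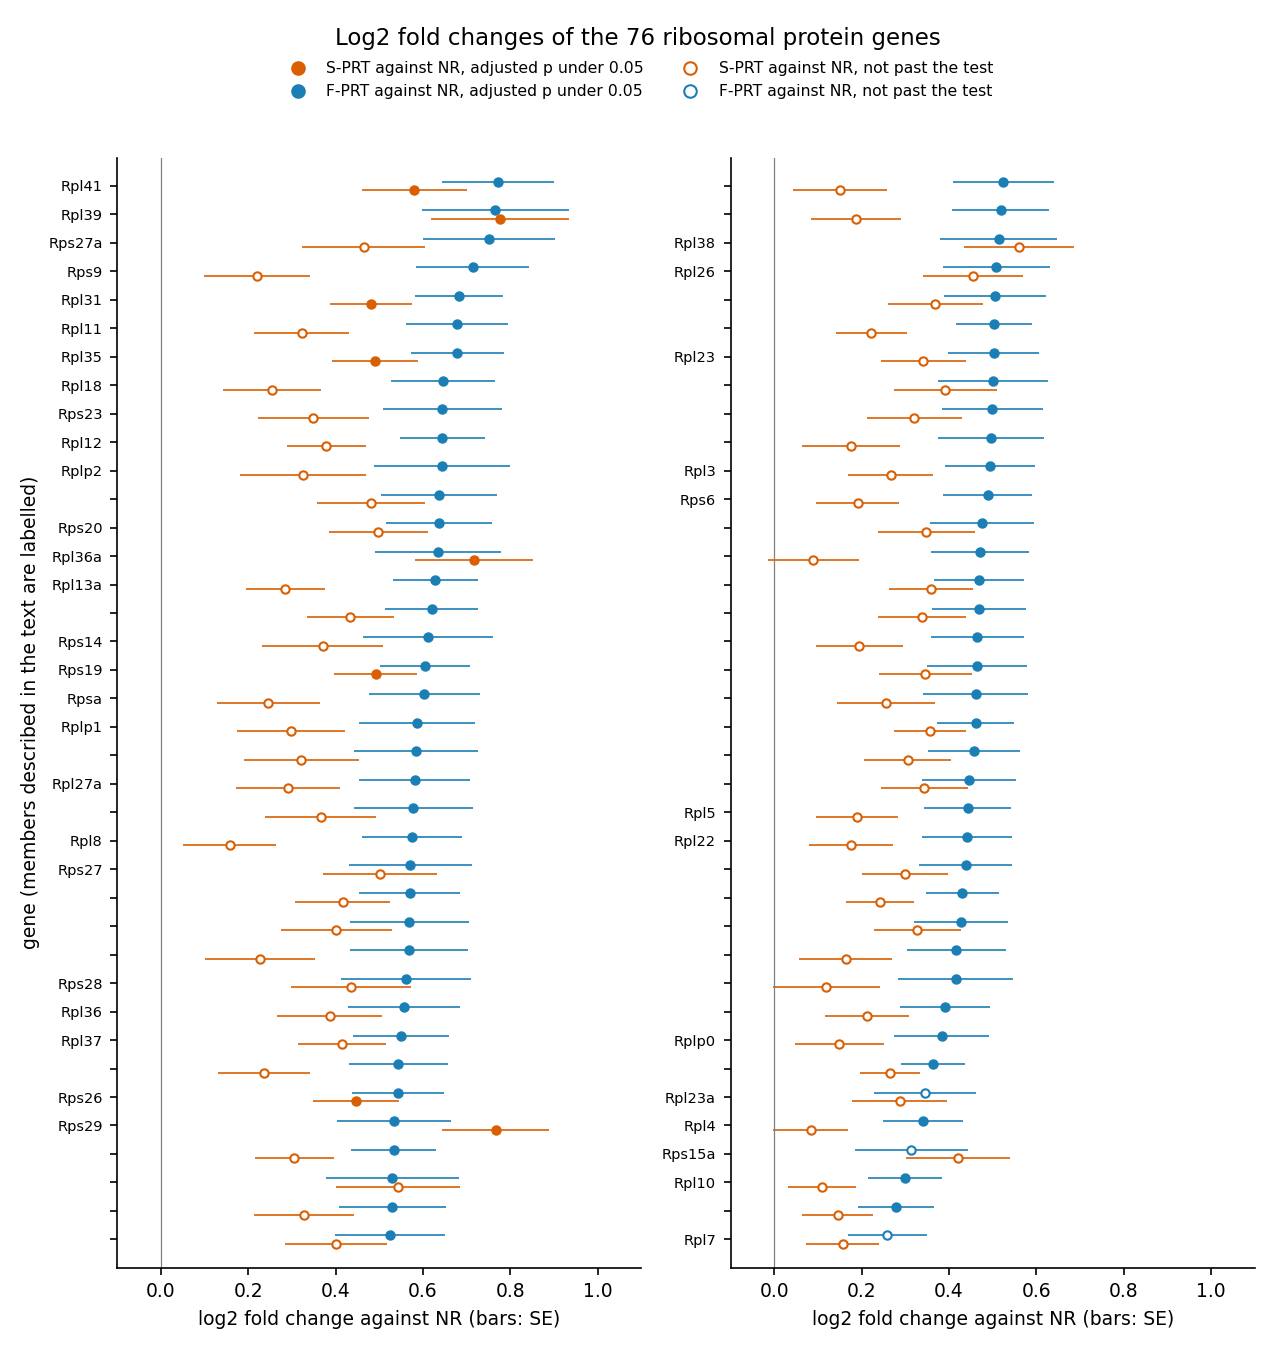
Log2 fold change against NR of each member in S-PRT (orange) and F-PRT (blue), ordered by the F-PRT value and labelled for members described in the text, with bars of 1 standard error; filled points passed adjusted p under 0.05. All points lie above 0, 73 blue points and 8 orange points are filled, and Rps29 and Rpl36a are among the few with the orange point to the right.

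The members are short, and short genes as a class moved in the same direction. Other protein-coding genes of similar effective length, the 1133 between the 10th and 90th percentile of the members (268.6 to 866.1 bases), had medians of 0.22 in S-PRT and 0.42 in F-PRT; 48 and 503 of them rose, and 0 and 2 fell. The members' median exceeded theirs by 0.10 in each comparison, a description over genes with no test. Lengths were not matched within the band: its median was 643.7 bases and that of the members 449.2. How much of the excess goes with this difference in length was not tested. Against the 123 of those genes that were as abundant as the members (mean log2 CPM of at least 6.59), the excess was 0.12 in each. These 123 were also longer, with a median of 576.9 bases. By library the members' median minus that of genes of similar length ran from -0.10 to 0.06 in NR, from 0.02 to 0.12 in S-PRT and from 0.08 to 0.12 in F-PRT, so F-PRT did not overlap NR and S-PRT did. The 10432 protein-coding genes longer than every member had medians of -0.04 and -0.06, and in F-PRT 483 of them rose and 1205 fell. With the length trend removed, where edgeR called 0 members in either comparison, 8 and 15 of 76 had an unadjusted p under 0.05, all higher, against 7.32 and 10.5% of all genes, and the members' medians were 0.04 and 0.11. Why fold change moved with length was not tested.

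Within length classes the excess was not even. Below 300 bases the 15 members had a median of 0.44 in S-PRT and the 84 other genes 0.35; in F-PRT the values were 0.56 and 0.51. From 300 to 400 bases the 20 members and 89 others both had a median of 0.52 in F-PRT, and 0.36 and 0.30 in S-PRT. From 400 to 600 bases the 19 members and 344 others stood at 0.254 and 0.255 in S-PRT, and at 0.54 and 0.45 in F-PRT. At 600 bases and over the 22 members stood at 0.23 in S-PRT and 0.47 in F-PRT, and the 2183 others at 0.13 and 0.31. Lengths were not matched within the classes. In the same order, the median lengths of members and others were 267.3 and 251.9, 345.6 and 351.8, 491.9 and 515.0, and 765.6 and 993.9 bases. Across the 76 members Spearman's rho of fold change with length was -0.65 in S-PRT, -0.27 in F-PRT and 0.47 between F-PRT and S-PRT. Across 13132 other protein-coding genes it was -0.40, -0.59 and -0.49, so between the irradiated groups the sign differed: the shortest members had the smaller differences. These are correlations across genes of the same libraries and carry no test.

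**Figure D4:**
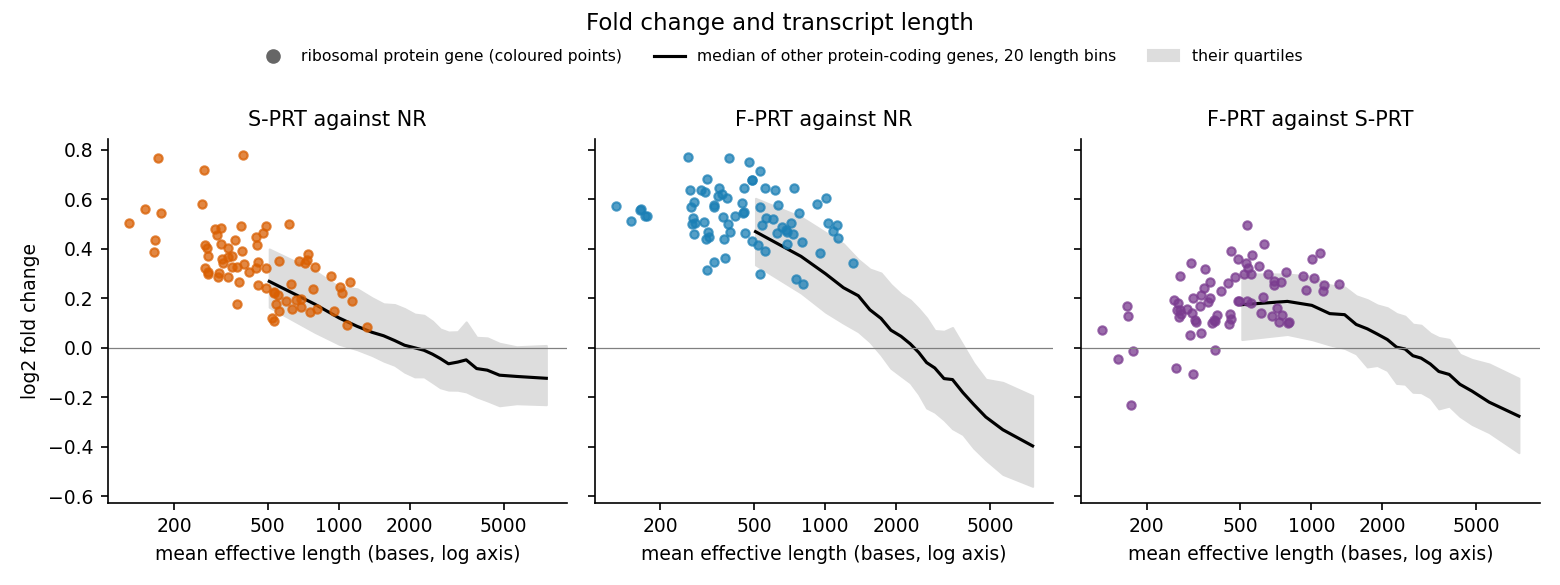
Log2 fold change against mean effective length (log axis) for the 76 members (points) and for other protein-coding genes (line: median in 20 length bins; grey: quartiles) in the 3 comparisons. The members lie at the short end. The line begins at 506.8 bases, above the members' median length of 449.2, so shorter members have no line beside them. Longer members lie on both sides of it. The line mostly falls from left to right, after a small first rise between F-PRT and S-PRT (0.174 to 0.187).

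FLASH and standard proton therapy were not told apart at the level of single members. Between F-PRT and S-PRT 0 members passed the edgeR test (0% of all genes did in either direction), and 28 had an unadjusted p under 0.05, all higher in F-PRT (8.48% of all genes were). DESeq2 called 2 members higher in F-PRT, Rps9 (adjusted p = 0.0396) and Rpl8 (adjusted p = 0.0449), against 0.495% of all genes. The fold change was above 0 for 70 of 76 members (background 50.4%), with a median of 0.19 and a range of -0.23 to 0.49, and for 13 members every F-PRT library exceeded every S-PRT library (background 5.45%). Genes of similar length had a median of 0.18, and without F-PRT 4 the members' median was 0.05, with 56 of 76 above 0, and that of genes of similar length 0.06. The median standard error was 0.12 per member, beside a median difference of 0.19. A missed threshold therefore does not show that single members were equal in the 2 groups.

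Among the members that bind Mdm2, the 5S ribonucleoprotein proteins Rpl5 and Rpl11 both rose in F-PRT. Rpl11 stood at 128, 129, 117 and 109 CPM in NR 1 to 4, 167, 149, 147 and 140.0 CPM in S-PRT 1 to 4, and 176, 169 and 234 CPM in F-PRT 2, 3 and 4, the order used for every gene from here on. Every irradiated library lay above every NR library, and F-PRT 4 was the highest. Rpl11 rose in F-PRT (0.68 ± 0.12 SE, adjusted p = 0.00690), and in S-PRT the difference was 0.32 ± 0.11 SE, adjusted p = 0.148, or adjusted p = 0.0154 with the block. Rpl5 stood at 119, 136, 115 and 107 CPM in NR, at 142, 132, 133 and 138 CPM in S-PRT and at 143, 163 and 181 CPM in F-PRT. S-PRT 2 and 3 lay below NR 2, and all 3 F-PRT libraries lay above NR. Rpl5 rose in F-PRT (0.44 ± 0.10 SE, adjusted p = 0.0138) and differed by 0.19 ± 0.09 SE, adjusted p = 0.303 in S-PRT. Rpl23 and Rpl26, also reported to bind Mdm2, rose in F-PRT by 0.50 and 0.51, though Rpl26 did not pass without F-PRT 4 (adjusted p = 0.0612). Their S-PRT differences of 0.34 and 0.46 passed with the replicate block but not without it (Rpl23 adjusted p = 0.0114, Rpl26 adjusted p = 0.00405). Rps27a, which is made as a fusion with ubiquitin, had 1 of the 3 largest rises in F-PRT. Rps27a stood at 149, 155, 127 and 107 CPM in NR, at 218, 189.5, 182 and 152 CPM in S-PRT and at 212, 266 and 200.3 CPM in F-PRT. The highest value was in F-PRT 3 and the F-PRT libraries did not overlap NR, while S-PRT 4 lay below NR 2 (0.75 ± 0.15 SE, adjusted p = 0.0101 in F-PRT, 0.46 ± 0.14 SE, adjusted p = 0.117 in S-PRT, adjusted p = 0.00475 with the block). Rps20 rose in F-PRT (0.64 ± 0.12 SE, adjusted p = 0.00907), and its S-PRT difference lay just outside the threshold (0.50 ± 0.11 SE, adjusted p = 0.0537, or adjusted p = 0.00376 with the block).

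The stalk of the large subunit recruits the elongation factors that hydrolyse GTP, and is made of Rplp0 with dimers of Rplp1 and Rplp2. Rplp0 stood at 452, 459, 414 and 382 CPM in NR, at 516, 469.5, 477 and 428 CPM in S-PRT and at 518, 514 and 636 CPM in F-PRT. S-PRT 4 lay below NR 1 and NR 2, and the F-PRT libraries lay above NR (0.38 ± 0.11 SE, adjusted p = 0.0301, or 0.27 and adjusted p = 0.102 without F-PRT 4). Rplp2 stood at 134, 130.3, 133 and 122 CPM in NR, at 175, 167, 156 and 153 CPM in S-PRT and at 171, 158 and 278 CPM in F-PRT. In Rplp2 F-PRT 4 stood far above the other 10 libraries, and F-PRT 2 and 3 lay within the S-PRT range (0.64 ± 0.16 SE, adjusted p = 0.0169 in F-PRT, 0.33 ± 0.14 SE, adjusted p = 0.257 in S-PRT, adjusted p = 0.0127 with the block). Without F-PRT 4 the F-PRT value of Rplp2 was 0.34. Rplp1 rose in F-PRT (0.59 ± 0.13 SE, adjusted p = 0.0140), at 0.37 without F-PRT 4. The S-PRT differences of Rplp0 and Rplp1 were 0.15 and 0.30, and that of Rplp1 passed with the block (adjusted p = 0.0308) but not without it. Rplp0 is one of the longer members, at 949.8 bases, and its change in F-PRT was among the smaller.

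Among the other large-subunit proteins, those called in both comparisons were Rpl39, Rpl41, Rpl36a, Rpl31 and Rpl35. Rpl39 stood at 68.4, 68.0, 52.1 and 43.5 CPM in NR, at 110.0, 99.0, 104 and 84.3 CPM in S-PRT and at 92.2, 121 and 82.7 CPM in F-PRT. Rpl39, which lines the exit tunnel, rose in both (0.78 ± 0.16 SE, adjusted p = 0.0366 in S-PRT; 0.77 ± 0.17 SE, adjusted p = 0.0128 in F-PRT), with F-PRT 3 the highest library and F-PRT 4 the lowest of the irradiated. Its expected counts were whole in 10 of the 11 libraries. Rpl41 stood at 132, 129.6, 125 and 113 CPM in NR and 211, 167, 198 and 171 in S-PRT, and the F-PRT libraries ran from 179 to 261. Rpl41, a very small basic protein at a bridge between the subunits, rose in both (0.58 ± 0.12 SE, adjusted p = 0.0378 in S-PRT; 0.77 ± 0.13 SE, adjusted p = 0.00613 in F-PRT). Neither irradiated group overlapped NR in Rpl39 or Rpl41.

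Rpl36a stood at 48.6, 50.2, 43.0 and 34.4 CPM in NR, at 83.0, 66.2, 79.7 and 60.6 CPM in S-PRT and at 61.0, 66.4 and 77.6 CPM in F-PRT. Rpl36a rose in both (0.72 ± 0.14 SE, adjusted p = 0.0301 in S-PRT; 0.63 ± 0.14 SE, adjusted p = 0.0145 in F-PRT), and the 2 irradiated groups overlapped; without F-PRT 4 it did not pass in F-PRT (adjusted p = 0.0527). Rpl31 stood at 78.6, 82.4, 75.3 and 69.9 CPM in NR, at 118, 101, 108 and 101 CPM in S-PRT and at 106, 124 and 138 CPM in F-PRT. Rpl31, beside the tunnel exit, and Rpl35, the docking site of nascent-chain factors, also rose in both: Rpl31 by 0.48 and 0.68, and Rpl35 by 0.49 and 0.68, in S-PRT and F-PRT. Rpl35 stood at 66.7, 71.3, 71.4 and 64.4 CPM in NR, at 106, 91.1, 97.2 and 90.5 CPM in S-PRT and at 102, 95.7 and 130.5 CPM in F-PRT. F-PRT 4 was the highest library in both Rpl31 and Rpl35. Rpl18 (0.65) and Rpl12 (0.64) completed the large-subunit members among the 10 largest rises in F-PRT. Rpl8 stood at 204, 215, 198 and 192 CPM in NR, at 245, 222, 220.0 and 216 CPM in S-PRT and at 265, 269 and 369.8 CPM in F-PRT. Rpl8, at the peptidyl transferase centre, rose in F-PRT (0.58 ± 0.11 SE, adjusted p = 0.00983), and every F-PRT library lay above every S-PRT library (difference 0.42 ± 0.11 SE, adjusted p = 0.185, or 0.24 without F-PRT 4). Its counts were whole in every library. Rpl13a, known for a role in translational silencing outside the ribosome, had a difference between F-PRT and S-PRT of 0.34 ± 0.10 SE, adjusted p = 0.185, likewise with no overlap.

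The longest members had some of the smallest differences in S-PRT. Rpl4 stood at 255, 282, 265 and 246 CPM in NR, at 295, 264, 279 and 272 CPM in S-PRT and at 316, 309 and 372 CPM in F-PRT. Rpl4, the longest at 1313.1 bases, lay within NR in 3 of 4 S-PRT libraries and above it in all 3 F-PRT libraries (0.08 ± 0.08 SE, adjusted p = 0.648 in S-PRT; 0.34 ± 0.09 SE, adjusted p = 0.0239 in F-PRT, adjusted p = 0.0737 without F-PRT 4). Rpl3 stood at 87.5, 86.2, 90.5 and 88.4 CPM in NR, at 102, 91.9, 125 and 105 CPM in S-PRT and at 132, 109.8 and 130.2 CPM in F-PRT. Rpl3 was above NR in every irradiated library, with S-PRT 2 only just above (0.49 ± 0.10 SE, adjusted p = 0.0114 in F-PRT). Rpl10, which joins the large subunit late and is needed for subunit joining, rose by 0.30 in F-PRT, though not without F-PRT 4 (adjusted p = 0.0879), and differed by 0.11 in S-PRT. Rpl22 rose by 0.44 in F-PRT and differed by 0.18 in S-PRT. Rpl38, linked to translation of selected messages, rose in F-PRT (0.51 ± 0.13 SE, adjusted p = 0.0224), but stood at 0.34 and did not pass without F-PRT 4 (adjusted p = 0.0921). In S-PRT Rpl38 lay just outside the threshold at 0.56 (adjusted p = 0.0515, or adjusted p = 0.00159 with the block). Rpl36 and Rpl37 rose in F-PRT by 0.56 and 0.55, and Rpl36 stood at 0.37 without F-PRT 4.

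In the small subunit, Rps29 had the smallest adjusted p of any member in S-PRT. Rps29 stood at 119, 114, 102 and 91.6 CPM in NR, at 218, 162, 181 and 165 CPM in S-PRT and at 146, 137 and 178 CPM in F-PRT. Rps29, a zinc-binding protein of the head, rose in both (0.77 ± 0.12 SE, adjusted p = 0.0161 in S-PRT; 0.53 ± 0.13 SE, adjusted p = 0.0178 in F-PRT), and S-PRT 1 was the highest library; without F-PRT 4 Rps29 did not pass in F-PRT (adjusted p = 0.0678). It had the most negative difference between F-PRT and S-PRT (-0.23 ± 0.13 SE, adjusted p = 0.397), followed by Rps15a (-0.11 ± 0.13 SE, adjusted p = 0.713) and Rpl36a (-0.08). Rps19 stood at 85.6, 84.6, 78.7 and 71.2 CPM in NR, at 119, 108, 120.2 and 103 CPM in S-PRT and at 117, 109 and 138 CPM in F-PRT. Rps19, mutated in Diamond-Blackfan anaemia and needed to mature the small-subunit RNA, rose in both (0.49 ± 0.10 SE, adjusted p = 0.0323 in S-PRT; 0.60 ± 0.10 SE, adjusted p = 0.00646 in F-PRT), with no overlap with NR. Rps26, another Diamond-Blackfan gene, rose by 0.45 in S-PRT and 0.54 in F-PRT.

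Rps9 stood at 190.4, 198, 184 and 168 CPM in NR, at 229, 208, 214 and 211 CPM in S-PRT and at 258, 264 and 389.8 CPM in F-PRT. Rps9, near the entry site of the messenger RNA, was the member with the largest difference between F-PRT and S-PRT (0.49 ± 0.13 SE, adjusted p = 0.184, or 0.27 without F-PRT 4), and every F-PRT library lay above every S-PRT library. It rose in F-PRT (0.71 ± 0.13 SE, adjusted p = 0.00823) and differed by 0.22 in S-PRT. Rps6 stood at 191, 189.9, 189 and 174 CPM in NR, at 225, 214, 209.5 and 199.9 CPM in S-PRT and at 241, 233 and 309 CPM in F-PRT. Rps6 encodes the substrate of S6 kinase, whose phosphorylation is the usual readout of mTORC1 and was not measured here. The Rps6 message rose in F-PRT (0.49 ± 0.10 SE, adjusted p = 0.0110). Its S-PRT values lay above NR, with a difference of 0.19 ± 0.09 SE, adjusted p = 0.308. Rpsa stood at 242, 269, 263 and 249 CPM in NR, at 326, 309.5, 301 and 277 CPM in S-PRT and at 338, 335 and 492 CPM in F-PRT. Rpsa, also the laminin receptor precursor, rose in F-PRT (0.60 ± 0.13 SE, adjusted p = 0.0115), and F-PRT 4 was far above the rest; without it the value was 0.40. Rps14, whose loss underlies the anaemia of 5q deletion, rose by 0.61 in F-PRT and differed by 0.37 in S-PRT (adjusted p = 0.0193 with the block). Rps27 and Rps28, at 0.57 and 0.56, and Rps23, at 0.65, rose in F-PRT. Without F-PRT 4 Rps23 stood at 0.42, and Rps28 at 0.30 did not pass (adjusted p = 0.0742). Their S-PRT differences of 0.50, 0.44 and 0.35 passed with the block but not without it (Rps27 adjusted p = 0.00317, Rps28 adjusted p = 0.00592, Rps23 adjusted p = 0.0139).

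Related genes outside the rule moved in the same direction where they passed. Of 12 looked up, 10 were tested and 1 was listed at 0 in every library. In S-PRT 1 rose (background 0.872%) and in F-PRT 6 rose (background 10.8%), with medians of 0.35 and 0.54. These genes are short, with a median effective length of 329.4 bases. In F-PRT 43 of 84 other protein-coding genes under 300 bases rose, and 55 of 89 from 300 to 400 bases. Rps27l, a paralog of Rps27 and a known p53 target, had whole counts in all libraries. Rps27l stood at 39.8, 37.4, 38.3 and 34.8 CPM in NR, at 68.8, 65.2, 67.4 and 54.0 CPM in S-PRT and at 66.8, 60.9 and 70.0 CPM in F-PRT. Every irradiated library lay above every NR library. Rps27l rose in both (0.76 ± 0.09 SE, adjusted p = 0.00320 in S-PRT; 0.81 ± 0.09 SE, adjusted p = 0.00223 in F-PRT) and still passed with the length trend removed (adjusted p = 0.0304 and 0.0432). With the replicate block 5 of the 10 rose in S-PRT (background 6.42%), among them Rps27l, Rpl22l1, Rpl36al and Fau. Without F-PRT 4 the count in F-PRT was 4, beside 678 of all 14556 genes. Rps27 itself differed by 0.50 in S-PRT and rose by 0.57 in F-PRT.

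Rpl22l1 stood at 24.9, 20.6, 17.5 and 14.5 CPM in NR, at 46.7, 34.9, 32.2 and 25.04 CPM in S-PRT and at 32.1, 40.9 and 28.1 CPM in F-PRT. Rpl22l1, the paralog that Rpl22 represses, rose in F-PRT (0.80 ± 0.21 SE, adjusted p = 0.0237) and lay just outside the threshold in S-PRT (0.84 ± 0.20 SE, adjusted p = 0.0591, or adjusted p = 0.000274 with the block), where S-PRT 4 lay barely above NR 1. Rpl3l stood at 205, 207, 193 and 188 CPM in NR, at 241, 256, 179 and 183 CPM in S-PRT and at 201, 222 and 252 CPM in F-PRT. Rpl3l, which replaces Rpl3 in striated muscle ribosomes, overlapped NR in both groups (0.12 ± 0.12 SE, adjusted p = 0.661 in S-PRT; 0.18 ± 0.13 SE, adjusted p = 0.335 in F-PRT). A p that misses the threshold does not show that Rpl3l was unaffected. Of the ribosomal protein genes with other names, Fau (0.61) and Rps3a1 (0.35) rose in F-PRT, and without F-PRT 4 they stood at 0.39 and 0.26, the latter no longer past the test. Their S-PRT differences were 0.31 and 0.22, of which that of Fau passed with the block. Rpl36al rose by 0.61 in F-PRT.

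**Figure D5:**
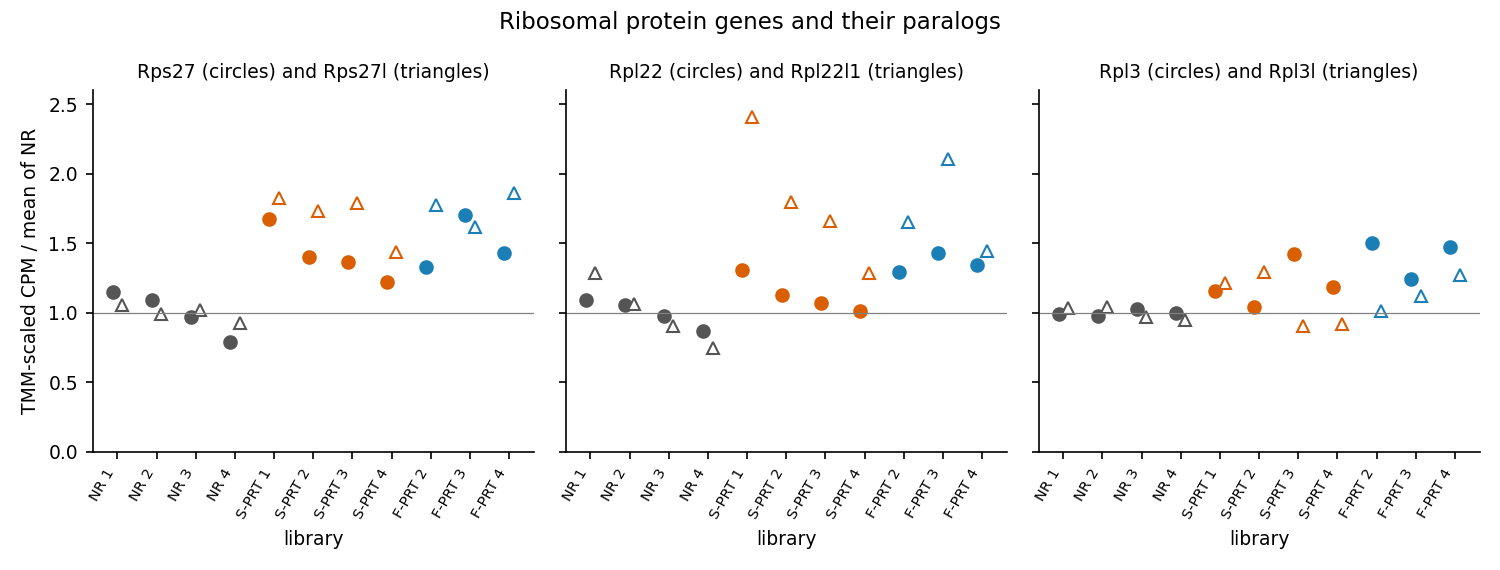
CPM relative to the NR mean in each library for 3 members (circles) and their paralogs (triangles). Rps27l and Rpl22l1 lie above NR in the irradiated libraries, and Rpl3l overlaps NR.

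The translation machinery around the ribosome was looked up next. The counts of these lists and of those that follow stand beside the shares of all genes that passed. These were 0.872% higher and 0.419% lower in S-PRT, and 10.8% higher and 8.67% lower in F-PRT. At an unadjusted p under 0.05, 1600 of the 14556 genes were higher and 1066 lower in S-PRT, and 2858 and 2403 in F-PRT. DESeq2 called 460 higher and 237 lower in S-PRT, and 1625 and 1761 in F-PRT. With the block 903 rose and 468 fell in S-PRT, and without F-PRT 4, 678 rose and 697 fell in F-PRT. The first list held 20 translation factors and other genes listed for transcripts with the 5′ tract, such as Npm1, Hnrnpa1 and Gas5. Of these 20 genes 0 passed the edgeR test in S-PRT and 8 rose in F-PRT (medians 0.09 and 0.28). The rises were led by the elongation factor subunits Eef1g (0.42) and Eef1d (0.53), the ribosome-bound scaffold Rack1 (0.42) and the initiation factor subunit Eif3k (0.48). In S-PRT 5 were higher and 1 lower at an unadjusted p under 0.05, the block called 2 higher and DESeq2 1 lower; without F-PRT 4 the F-PRT count was 5 and Eef1d stood at 0.34. Of 35 ribosome assembly genes 0 passed in S-PRT (unadjusted, 4 higher and 2 lower; with the block and with DESeq2, 1 higher each) and 6 rose in F-PRT (medians 0.03 and 0.15), among them the small nucleolar ribonucleoprotein proteins Nhp2 (0.68 ± 0.13 SE, adjusted p = 0.00887) and Fbl (0.60 ± 0.12 SE, adjusted p = 0.00943), the polymerase subunit Polr1d and Eif6, which keeps free large subunits from joining. In the list of 20 mTOR and Myc genes 0 passed in S-PRT (unadjusted, 3 higher and 3 lower; with the block, 1 and 1; with DESeq2, 0 and 1), and in F-PRT 3 rose and 3 fell (15% each way, not far from the shares of all genes), or 3 and 1 without F-PRT 4. Mycn (1.24 ± 0.25 SE, adjusted p = 0.0100) and the translation repressor Eif4ebp1 (0.50) rose, while Rptor, the defining subunit of mTORC1, Larp4 and Eif4ebp2 fell, by 0.38, 0.38 and 0.28 on the log2 scale; without F-PRT 4 Rptor (-0.23) and Eif4ebp2 (-0.19) did not pass. Mtor itself differed by -0.42 in F-PRT and did not pass (adjusted p = 0.122).

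Of 6 tested genes on the p53 side, 3 rose in each comparison. Cdkn1a, the p53-induced cell cycle inhibitor, rose by 2.52 in S-PRT and 2.67 in F-PRT, and Phlda3 and Eda2r rose with it; Mdm2 differed by 0.22 and 0.16 and Trp53 by 0.37 and 0.22, none of which passed. Of the mitochondrial ribosomal protein genes, 2 of 78 rose in S-PRT and 37 of 78 in F-PRT, with medians of 0.18 and 0.34; the block raised the S-PRT count to 13, and without F-PRT 4 the F-PRT count was 14. Of 90 nuclear oxidative phosphorylation genes 0 passed in S-PRT and 43 rose in F-PRT, with medians of 0.20 and 0.40. In S-PRT 20 of these were higher and 2 lower at an unadjusted p under 0.05, beside 1600 and 1066 of the 14556 genes. The block called 23 higher and 1 lower and DESeq2 3 higher, and 2 rose in F-PRT without F-PRT 4, beside the counts over all genes given above. With the length trend removed the medians were -0.01 and 0.02 for the mitochondrial ribosome and -0.07 and 0.00 for oxidative phosphorylation, beside 0.04 and 0.11 for the cytosolic members.

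Markers of other cells moved in some of the same libraries. The 8 macrophage and monocyte markers summed to 94.3 to 162 CPM in NR, 151 to 299 in S-PRT and 125 to 228 in F-PRT, and 1 of them, Ccr2, rose in both; with the replicate block 7 of the 8 rose in S-PRT. The 4 proliferation markers summed to 2.21 to 5.84 CPM in NR, 8.78 to 17.5 in S-PRT and 7.84 to 14.4 in F-PRT, and 2 of 4 and 3 of 4 rose; with the block 4 rose in S-PRT, and without F-PRT 4 none passed in F-PRT. The 5 B cell markers summed to 6.93 to 12.7 CPM over all libraries. Their fold changes were negative for 5 in S-PRT (median -0.532) and for 4 in F-PRT (median -0.529), and none passed the edgeR test. Of the 6 T and NK cell markers 2 were abundant enough to test, and those 2 summed to 0.171 to 1.75 CPM. Of 6 cardiomyocyte markers 1 fell in F-PRT, Ryr2, by 0.86 on the log2 scale, and of the 2 tested atrial markers Myl4 rose there by 1.01; without F-PRT 4 neither list had a call. Of 6 endothelial markers, summing to 348 to 527 CPM in NR, 230 to 336 in S-PRT and 225 to 416 in F-PRT, Flt1 fell in both, by 0.93 and 0.82 on the log2 scale, and 4 fell in S-PRT with the block and in F-PRT without F-PRT 4. Of 6 fibroblast markers, at 268 to 508, 348 to 462 and 199 to 397 CPM, Pdgfra fell by 1.34 in F-PRT; without F-PRT 4 there were 3 that fell. Of 5 pericyte and smooth muscle markers, at 326 to 443, 297 to 353 and 269 to 462 CPM, none passed the edgeR test (unadjusted, 1 higher and 2 lower in S-PRT and 1 lower in F-PRT; DESeq2, 0 and 1 lower); 2 fell in S-PRT with the block and 1 in F-PRT without F-PRT 4. The 5 erythroid markers, at 817 to 1510, 559 to 1030 and 355 to 1640 CPM, had negative fold changes in both comparisons and none passed with edgeR, unadjusted or with DESeq2, while 3 fell in F-PRT without F-PRT 4. The part of these cells in the ribosomal protein changes was not tested.

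The promoter features were set beside the fold changes for the 56 members with an entry. Members with the C-plus-pyrimidine tract at the annotated start had medians of 0.37 in S-PRT and 0.52 in F-PRT, and those without it 0.33 and 0.54. With and without CCGGAAG the medians were 0.35 and 0.33 in S-PRT, and 0.55 and 0.52 in F-PRT. Rps6 and Rpl35, both shown above with a tract, differed by 0.19 and 0.49 in S-PRT. These medians are descriptions with no test.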

How the data were processed

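RNA from 11 heart apex samples was compared, grouped by title into NR (4 libraries), S-PRT (4) and F-PRT (3). For each gene the authors deposited expected counts, TPM and an effective length in bases, per the file headers. The submitters' processing notes name FastQC, cutadapt, STAR, RSEM and edgeR without versions, and the builds GRCm39 and mm10; which build the counts rest on, and the strand setting of the counting, are not given in the sources used here. Libraries were made with a directional poly(A) kit, per the labels' protocols. Symbols came from a name table (52081 of 55414 identifiers matched, 3333 did not) and biotypes from the GRCm38 annotation.

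Expected counts were rounded, and filterByExpr with a minimum count of 10 and a total of 15 kept 14556 genes. Libraries were scaled by TMM, and all 3 groups were fitted together with edgeR 4.0.16 in R 4.3.3 (glmQLFit and glmQLFTest, 8 residual degrees of freedom) with no covariate; p-values were adjusted by Benjamini-Hochberg over all genes, and adjusted p under 0.05 was called. CPM are TMM-scaled. Alternatives were DESeq2 1.42.0, limma 3.58.1 on log2(TPM + 1) and log2(TPM + 0.1), 1 surrogate variable from sva 3.50.0, and other scalings and filters. Others were removal of a length trend, pseudogene counts added to their parents, and each library left out. For the length trend, log2 CPM minus the gene's mean over all 11 libraries was smoothed on log10 effective length in each library. The smooth curve entered the fit as an offset. Members were among the genes smoothed, so part of their own shift may have been removed. The edgeR fit was also run on simulated counts with the same spread for every gene and no length trend. That run cannot show how the length trend or F-PRT 4 bear on the calls. Same-numbered NR and S-PRT libraries correlated in their deviations from the group means (0.14, 0.16, 0.22 and 0.11, all over 0.1), so the blocked value stands beside the S-PRT result. The pairing is weak: S-PRT 1 correlated more with NR 2 (0.30), and S-PRT 4 more with NR 3 (0.24), than with its own number. The numbers come from the titles, which do not say what they mark. Same-numbered F-PRT libraries did not pair with NR (-0.11, -0.21 and 0.16) or S-PRT (-0.25, -0.24 and -0.15).

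Members and lists were chosen with earlier results of these data known. Named genes were, per comparison, the 10 largest changes past the threshold in each direction (or the 3 with the smallest p), a fixed set of well-known members, the 3 most and least abundant, the 3 longest and shortest, and up to 4 of each list. Sequences are from the RefSeq promoter table (GRCm38.p6), used for sequence only. Rps21, Rpl7, Rpl15 and Rpl23a, and Mtor, Ryr2, Myl4, Polr1d, Eif6, Larp4, Rptor, Eif4ebp2, Fau, Rps3a1, Rpl36al, Rpl3l, Mdm2 and Trp53, were named outside the rule, after their values were seen. Values of some genes are not reported here.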

Additional observations from a re-analysis of the deposited data

Results flagged for a closer look

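In each group of 4 libraries the lowest and highest CPM of the named members were compared with their neighbours by Dixon's criterion (80 gene and group pairs; the 3 F-PRT libraries are too few to test). In 3 of the 80 a library lay far from the other 3, and chance flags about 1 in 20. These were Rps6 in NR 4, at 174 CPM below the other NR libraries, and Rpl27a and Rps23 in S-PRT 1, at 120 and 167 CPM above the other S-PRT libraries. NR 4 had the lowest and S-PRT 1 the highest median over all members in its group.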

How the results depend on the processing

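The 76 members kept fold changes above 0 against NR in every alternative run except 3 kinds: library size only (72 of 76 in S-PRT), log2 TPM (57 of 76 in S-PRT) and length trend removed (49 of 76 in S-PRT and 65 of 76 in F-PRT). Of all 14556 genes, 3432 were above 0 in S-PRT with log2(TPM + 1). With the length trend removed 6106 were above 0 in S-PRT and 7246 in F-PRT. The count in S-PRT, 8 as reported, was 1 with library size only, 5 without mitochondrially encoded genes, 20 with no count filter, 13 with at least 50 counts in 3 libraries, 29 with DESeq2, 0 with log2(TPM + 1), 0 with log2(TPM + 0.1), 0 with the length trend removed, 37 with only the 2 groups fitted and 23 with 1 surrogate variable. Of genes of similar length in S-PRT, 48 of 1133 rose as reported, 3 of 1133 with library size only and 45 of 1126 without mitochondrially encoded genes. With no count filter 105 of 1133 rose, with at least 50 counts 54 of 975, and with DESeq2 123 of 1133. With only the 2 groups fitted 117 of 1092 rose, and with 1 surrogate variable 121 of 1133. With pseudogene counts added to their parents 12 members rose in S-PRT and 70 in F-PRT, with medians of 0.317 and 0.471. Of the 1131 genes of similar length in that run, 54 and 428 rose. Leaving out 1 library gave 0 to 7 members in S-PRT and 51 to 75 in F-PRT, and 0 to 0 between F-PRT and S-PRT. Genes of similar length that rose then numbered 6 to 47, 214 to 572 and 0 to 5. The count in F-PRT, 73 as reported, was 8 with library size only, 2 with each TPM pseudocount and 0 with the length trend removed. Of the 1133 genes of similar length, 503 rose in F-PRT as reported and 17 with library size only. With log2(TPM + 1), log2(TPM + 0.1) and the length trend removed, 9, 10 and 11 of them rose. With the replicate block the count of members was 53 in S-PRT (background 6.42%), where same-numbered libraries paired only weakly. In F-PRT the count with the block was 0, and same-numbered libraries did not pair with NR. The block changed no call between F-PRT and S-PRT, where DESeq2 called 2.

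The members' median in S-PRT was 0.187 with library size only (all genes -0.136), 0.085 with either TPM pseudocount (all genes -0.132 and -0.188) and 0.044 with the length trend removed; with 1 library left out it ran from 0.282 to 0.366. In F-PRT it was 0.112 with the length trend removed and 0.367 to 0.597 with 1 library left out, lowest without F-PRT 4. Between F-PRT and S-PRT it was 0.395 with library size only (all genes 0.188), 0.383 and 0.384 with TPM (all genes 0.126 and 0.187) and 0.048 with the length trend removed; with 1 library left out it ran from 0.048 (without F-PRT 4) to 0.252. The members' excess over genes of similar length between F-PRT and S-PRT, 0.010, was -0.004 against abundant genes. The members' share was 1.772, 2.119 and 2.449% in NR, S-PRT and F-PRT without mitochondrially encoded genes, and 2.355, 2.515 and 3.363% of TPM. For the 18 pairs of a named member and a comparison with NR chosen for passing the test, of 368 alternative values 244 kept their side of the threshold, 124 no longer passed and 0 changed sign. The causes of these changes were not tested. Single members held at least 1019 counts in every library, and what depth, shared reads and group size cost in precision was not tested.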
